A study of Mus musculus with 7 samples.

Results

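Integrins are the receptors with which T cells hold on to other cells and to the matrix around them. The 9 integrin genes described here are Itgal, Itgb2, Itga4, Itgb1, Itgb7, Itgae, Itgb3, Itgav and Itga6. Their rows were taken by name from the non-control rows of the arrays. No value entered that rule, but the genes were chosen with earlier results of these data known. They were read by 16 probes of 55681 on the array, and all 9 genes and all 16 probes passed the filter on dim spots, as did 18256 of 34797 gene names.

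RNA came from naive CD8 T cells of mouse lymph nodes, sorted for CD8b and for low CD44 and frozen without activation. All cells carried the OT-1 T cell receptor transgene (OT-1het) on a Rag-/- background, so the receptor was the same in both groups. The 3 WT samples had no further allele named in the labels. The 4 samples of the other group were Lck-/- and carried a knocked-in Lck that is expressed while doxycycline is given; the drug had been left out of the diet for 7 days, and the group is called Lck-off here. Lck is the kinase that starts signalling from the T cell receptor. The diet change is given for the Lck-off mice alone, and no such mice still on doxycycline were measured, so genotype, diet and the loss of Lck cannot be told apart. The samples are described as biological replicates, and whether each came from 1 animal is not stated, so p-values cover the spread between these samples, which may be technical. In such bulk samples fewer cells of a type and less RNA per cell cannot be told apart.

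An integrin is a pair of an alpha and a beta chain that only reaches the cell surface together. On a resting T cell the pair is bent and binds weakly; signals from the T cell receptor or from chemokine receptors act through the small GTPase Rap and the adaptors talin and kindlin, which bind the beta chain's cytoplasmic tail and straighten the receptor. Adhesion is therefore set largely by the state of the protein, while the arrays measure RNA. Itgal pairs with Itgb2 to form LFA-1, which binds ICAM molecules on antigen-presenting cells and vessel walls. Itga4 pairs with Itgb1 to bind VCAM-1, or with Itgb7 to bind MAdCAM-1 in gut vessels, and Itgae (CD103) pairs with Itgb7 to bind E-cadherin on epithelium. Itga6 pairs with Itgb1 to bind laminin, and Itgav pairs with Itgb3 among other beta chains to bind vitronectin and fibronectin.

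Each sample lay on 1 single-colour array, all 7 on 1 slide in 2 rows, with 1 WT array (replicate 3) and 2 Lck-off arrays (replicates 2 and 3) in row 1. Each array had 42.5% to 48.7% of its probes well above background, and no spot was saturated. The T cell genes Cd8a, Cd8b1 and Cd3e were well above background on every array. Lck itself was lower in Lck-off by 0.37 log2 units (adjusted p = 0.0494), although the labels do not say whether its probe lies in the altered part of the gene. Each level below is a log2 intensity from which the 75th percentile of its array was subtracted. A difference is the Lck-off mean minus the WT mean of such levels, with an adjusted p from limma over all genes or, where a single probe is named, over all probes; ± gives the SD (n = 3 for WT and n = 4 for Lck-off). Levels were not compared between genes, because each probe binds with its own strength. Precision is set by how few arrays there are: the SE of a member's difference lay between 0.08 and 0.17.

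The results turn on the probes of Itga6, Itgb3, Itgb1 and Itgae, whose sequences show which stretch of each RNA was read. Each probe has 60 bases and 1 spot per array. Probes are named here by the base of the transcript at which they start, which is also what separates probes of 1 gene. The first 30 bases are shown for Itga6 and Itgb3, and the whole probe for Itgb1 and Itgae, with positions on mm9 from the array files. The files give no exon numbers.
Itga6 at base 4145, chromosome 2, 71694756 to 71694815, plus strand: gagaatgagaacctgggaggtcttgttgtt
Itga6 at base 383 of a short Ensembl transcript, chromosome 2, 71690633 to 71690692, plus strand: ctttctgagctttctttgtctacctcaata
Itgb3 at base 5665, chromosome 11, 104531672 to 104531731, plus strand: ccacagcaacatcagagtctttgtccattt
Itgb1 at base 2631, chromosome 8, 131250081 to 131255976, plus strand: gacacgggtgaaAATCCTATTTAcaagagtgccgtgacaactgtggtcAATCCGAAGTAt
Itgb1 at base 1840, chromosome 8, 131246349 to 131246408, plus strand: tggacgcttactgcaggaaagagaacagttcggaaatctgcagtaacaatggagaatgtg
Itgae at base 2796, chromosome 11, 72945236 to 72946221, plus strand: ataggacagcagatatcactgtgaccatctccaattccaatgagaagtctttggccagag
The Itgb1 probe at base 2631 spans 5896 bases of the genome and the Itgae probe 986, so both cross an intron and read spliced RNA. Capitals in the Itgb1 probe mark AATCC, any 4 bases and TA, a pattern searched on both strands of every probe of this length. This probe holds them 2 times. Of 55602 probe sequences 0.513% hold them at all, and 0.0036% hold them 2 times on a strand. They are codons of the repeated motif of beta chain tails to which talin and kindlin bind, so this probe reads the part of Itgb1 that encodes the cytoplasmic tail; a match is a description of the letters. The longest run of bases shared by probes of different members was 8.

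Of the 9 genes, Itga6 rose, Itgb3 fell and 7 did not pass the test at an adjusted p under 0.05. Of all genes tested 8.39% were called, 3.81% higher and 4.58% lower. The median difference of the members was -0.16, against -0.01 over all genes. In 5 of the 9 genes no Lck-off array overlapped with the WT arrays: Itga6 was above them, and Itgb1, Itgb2, Itgb3 and Itgae were below. Over all genes 21.8% showed no overlap, 9.8% with Lck-off higher and 12% with Lck-off lower. At an unadjusted p under 0.05 these were the same 5 genes, where 3926 of 18256 genes reached it. Among the 16 probes 1 rose and 2 fell, where 7.33% of all probes were called, 3.46% higher and 3.87% lower.

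**Figure D1:**
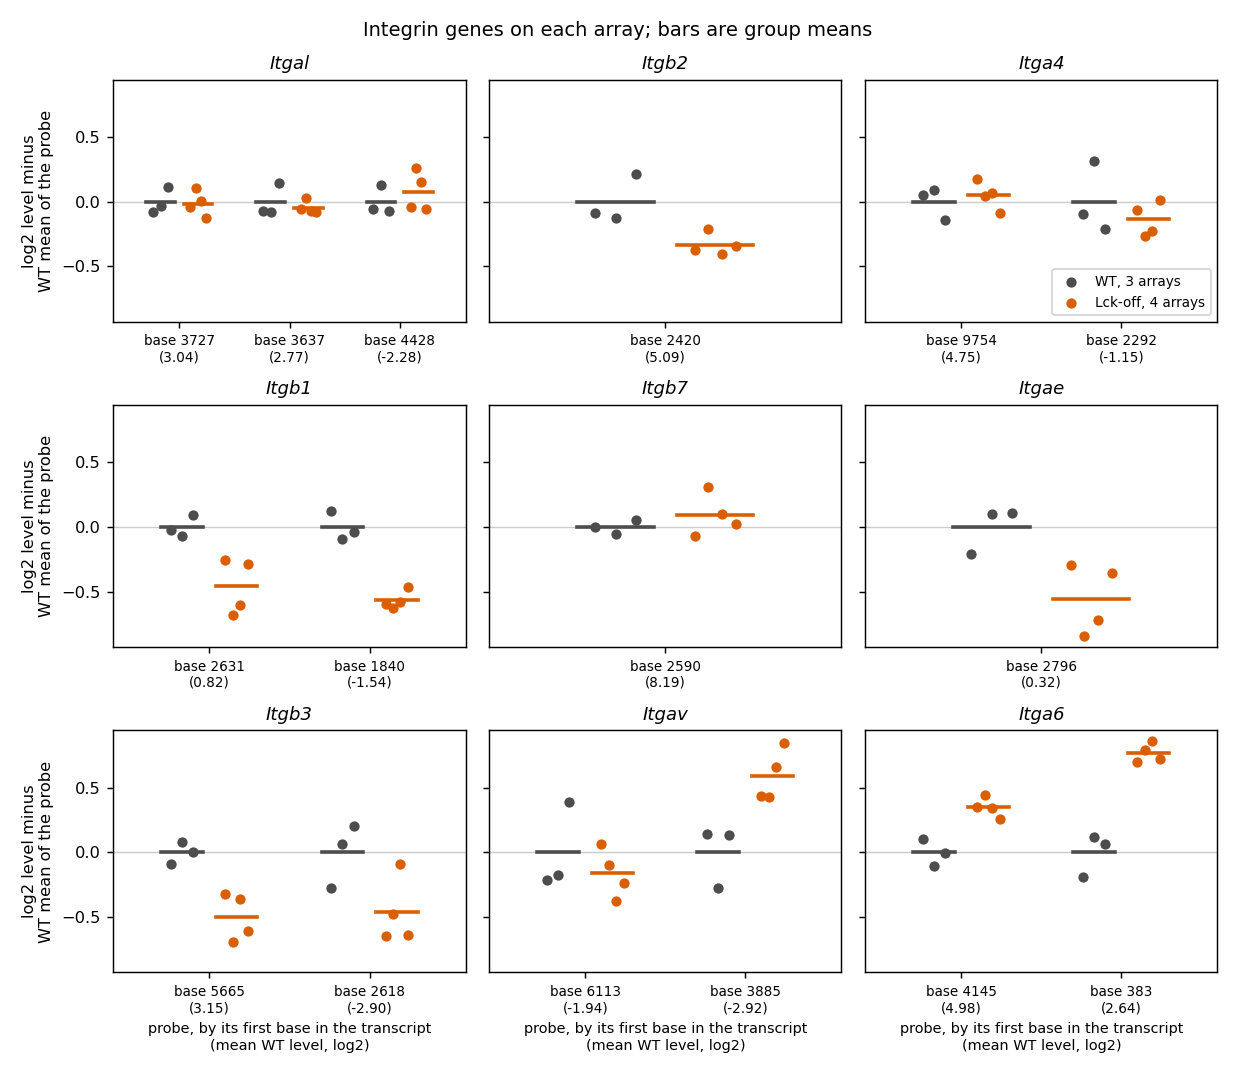
Each point is 1 array (grey WT, orange Lck-off), given as its log2 level minus the WT mean of that probe on the y axis, for each probe on the x axis with its mean WT level in brackets; bars are group means. The points of Itga6 lie above WT at both probes, those of Itgb1 below WT at both, and the probes of Itgal stay close to 0.

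Both chains of LFA-1, the main adhesion receptor of naive T cells, were measured. Itgal encodes the alpha chain, CD11a, which carries the ICAM-binding domain. The WT arrays read 2.96, 3.01 and 3.15 for Itgal and the Lck-off arrays 3.00, 3.15, 3.05 and 2.92. The groups lay over each other, with a difference of -0.01 (95% confidence interval -0.21 to 0.19, adjusted p = 0.951), so a change as small as that interval could not be seen here. The probe at base 3637, nearby on chromosome 7, differed by -0.05. The remaining probe, at base 4428 of a cDNA clone, differed by 0.08. None of the 3 probes of Itgal reached an unadjusted p under 0.05.

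Itgb2 encodes CD18, the beta chain that all leukocyte integrins of this kind share. Its WT arrays read 5.0, 4.96 and 5.30 and its Lck-off arrays 4.72, 4.88, 4.69 and 4.75. Each Lck-off array was below the lowest WT array. The difference of -0.33 (SE 0.10, 79.4% of the WT level, 95% confidence interval 67.2% to 94.0%) did not pass the test (adjusted p = 0.109). WT replicate 3 was the highest array: without it the difference was -0.23. In row 1, where it is the sole WT array, Itgb2 differed by -0.52, and in row 2 by -0.25. Itgb2 was called with the authors' deposited values (-0.34, adjusted p = 0.0453) and with trended and robust moderation (adjusted p = 0.0313). Over all alternatives the adjusted p ran from 0.0313 to 0.438.

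Itga4 encodes CD49d, the alpha chain of the receptors for VCAM-1 and MAdCAM-1. The WT arrays read 4.80, 4.84 and 4.61 and the Lck-off arrays 4.93, 4.79, 4.81 and 4.66. These values overlapped, with a difference of 0.05 (95% confidence interval -0.17 to 0.27, adjusted p = 0.837). Its other probe, at base 2292, differed by -0.13 (adjusted p = 0.691).

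Itgb1 encodes CD29, the beta chain shared by the receptors for VCAM-1, laminin and fibronectin, which is higher on memory than on naive T cells. At the probe over its cytoplasmic tail the WT arrays read 0.80, 0.75 and 0.91 and the Lck-off arrays 0.57, 0.14, 0.22 and 0.54. All Lck-off arrays were below WT, and replicates 2 and 3, both in row 1, were the lowest. The gene, which this brighter probe stands for, differed by -0.46 (SE 0.13, adjusted p = 0.0787) and was not called. Within row 1 the difference was -0.74 and within row 2 it was -0.22. With all kept probes averaged Itgb1 was called (-0.51, adjusted p = 0.0158), as it was with trended and robust moderation (adjusted p = 0.0324), and over all alternatives the adjusted p ran from 0.0158 to 0.378.

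The second Itgb1 probe, at base 1840, fell. Its WT arrays read -1.42, -1.63 and -1.58 and its Lck-off arrays -2.14, -2.17, -2.12 and -2.01. The Lck-off arrays lay close together and all below WT. The difference was -0.57 (SE 0.08, adjusted p = 0.0078 over all probes), which is 67.5% of the WT level (95% confidence interval 58.9% to 77.4%). It was called in 7 of 7 repeats that left out 1 array, with the adjusted p between 0.0201 and 0.0317. The call ended without the filter on dim probes (adjusted p = 0.0789) and in rows 1 and 2 taken alone, where the difference was -0.57 and -0.55 (adjusted p = 0.332 and 0.226). In the authors' deposited values, and with normexp background correction, the difference at this dim probe was smaller, at -0.31 and -0.33, and still called (adjusted p = 0.0183 and 0.0220).

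Itgb7 encodes the beta chain that pairs with Itga4 for entry to the gut and with Itgae for residence in epithelium. For Itgb7 the WT arrays read 8.19, 8.14 and 8.24 and the Lck-off arrays 8.12, 8.50, 8.29 and 8.21. Lck-off replicate 2 was the highest and replicate 1 the lowest of all arrays, so the groups overlapped. The difference of 0.09 (95% confidence interval -0.14 to 0.33) did not pass the test (adjusted p = 0.694).

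Itgae encodes CD103, which marks naive CD8 cells as well as cells resident in epithelium and is known to be induced by TGF-beta. For Itgae the WT arrays read 0.11, 0.42 and 0.42 and the Lck-off arrays 0.02, -0.53, -0.41 and -0.04. No Lck-off array reached the lowest WT array, but replicates 1 and 4, in row 2, came close to it. The difference of -0.55 (SE 0.16, 68.2% of the WT level, 95% confidence interval 52.3% to 88.8%) did not pass the test (adjusted p = 0.0925). It was -0.36 in the authors' deposited values and -0.41 with normexp background correction. It was -0.89 within row 1 and -0.27 within row 2. With trended and robust moderation Itgae was called (adjusted p = 0.0344), and over all alternatives the adjusted p ran from 0.0344 to 0.474.

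Itga6, the alpha chain CD49f of the laminin receptor, was the 1 member that rose. Its WT arrays read 5.09, 4.88 and 4.98 and its Lck-off arrays 5.33, 5.43, 5.32 and 5.24, all above the highest WT array. The difference was 0.35 (SE 0.08, adjusted p = 0.0417), or 128% of the WT level (95% confidence interval 112% to 145%). Over all probes the same reading missed the threshold (adjusted p = 0.0513). Leaving out any 1 array ended the call (7 of 7 repeats), with a difference of 0.30 to 0.40 and an adjusted p of 0.0540 to 0.149, lowest without WT replicate 1 and highest without WT replicate 2. Blocking on the row of the slide ended it too (difference 0.34, with adjusted p = 0.0731).

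The other Itga6 probe, in the short Ensembl transcript, rose by more. The WT arrays read 2.46, 2.76 and 2.71 there and the Lck-off arrays 3.34, 3.44, 3.50 and 3.36. The gap between the highest WT and the lowest Lck-off array was wider than the spread within either group. Its difference was 0.77 (SE 0.10, adjusted p = 0.0044 over all probes), or 170% of the WT level (95% confidence interval 145% to 200%). All 7 repeats without 1 array called it, with an adjusted p of 0.0111 to 0.0192 and a difference of 0.67 to 0.83. Within rows 1 and 2 taken alone it was 0.76 and 0.74 and not called (adjusted p = 0.236 and 0.181). With the probes averaged, Itga6 differed by 0.56 (adjusted p = 0.0032). Both probes lie on the plus strand of chromosome 2, the one of the short transcript at the lower coordinate, and whether the difference between their responses exceeds error was not tested.

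Itgb3 encodes CD61, the beta chain of the vitronectin receptor, which platelets also carry in large amounts paired with Itga2b. The WT arrays read 3.06, 3.23 and 3.16 for Itgb3 and the Lck-off arrays 2.83, 2.46, 2.79 and 2.54. All Lck-off arrays were below WT. Itgb3 fell by 0.50 (SE 0.11, adjusted p = 0.0386), to 70.9% of the WT level (95% confidence interval 59.0% to 85.1%), and the same reading passed over all probes (adjusted p = 0.0446). Leaving out 1 array ended the call in 6 of 7 repeats, all but the one without Lck-off replicate 1, with a difference of -0.55 to -0.43 and an adjusted p of 0.0345 to 0.135, highest without WT replicate 2. Blocking on the row of the slide ended it too (difference -0.49, with adjusted p = 0.0726). Within row 1 the difference was -0.53 and within row 2 it was -0.46.

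The dim second probe of Itgb3, at base 2618, was well above background on 3 of 3 WT and 2 of 4 Lck-off arrays. The WT arrays read -3.17, -2.83 and -2.69 and the Lck-off arrays -3.55, -3.38, -2.99 and -3.54, so that Lck-off replicate 3 lay inside the WT range. Its difference of -0.46 (adjusted p = 0.189) had the sign of the brighter probe and was not called. It was smaller, at -0.18 and -0.21, in the authors' deposited values and with normexp background correction. Of the 15 platelet and megakaryocyte markers on the array, 10 never stood well above background, among them Pf4, Ppbp and Gp9. Itga2b differed by 0.00 (adjusted p = 0.998), and the summed linear level of the 3 platelet genes tested was 0.421 to 0.424 in WT and 0.410 to 0.491 in Lck-off.

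Itgav, the alpha chain CD51, was read differently by its probes. At base 6113, the brighter one, the WT arrays read -2.15, -2.12 and -1.55 and the Lck-off arrays -1.88, -2.04, -2.31 and -2.18. The groups overlapped, and WT replicate 3 was the highest array (-0.16, adjusted p = 0.688). At base 3885 the WT values were -2.78, -3.20 and -2.78 and the Lck-off values -2.48, -2.49, -2.25 and -2.07, with no overlap and a difference of 0.59 that did not pass (adjusted p = 0.0634). This dim probe differed by 0.18 in the authors' deposited values and by 0.15 with normexp background correction. No direction is given for Itgav.

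**Figure D2:**
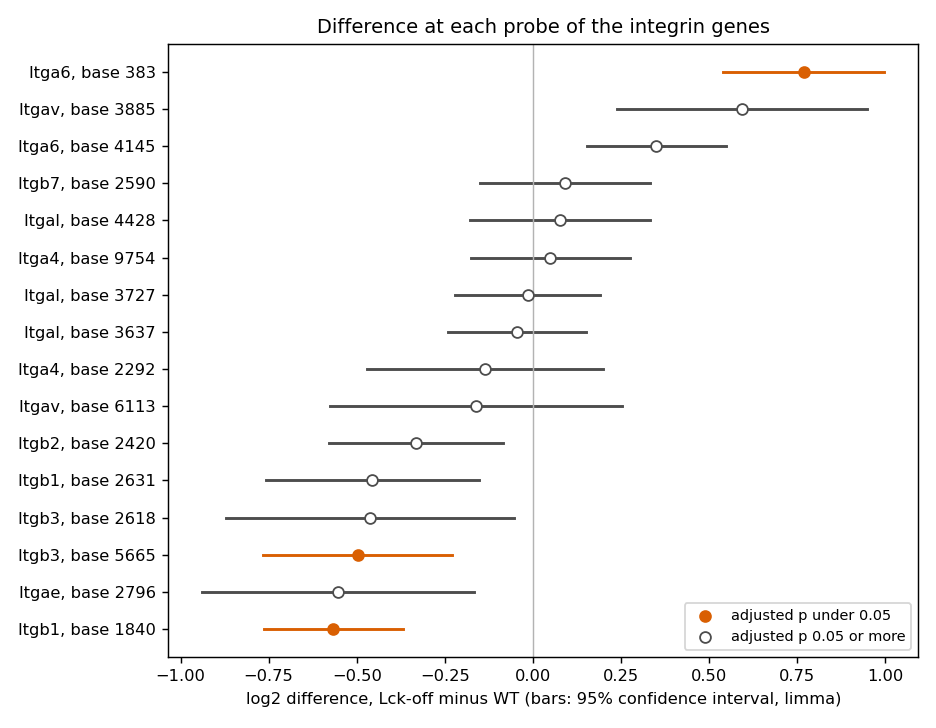
Points are the log2 difference, Lck-off minus WT, of each of the 16 integrin probes on the x axis with its 95% confidence interval from limma, ordered by size; filled points passed an adjusted p under 0.05 over all probes. The Itga6 probe at base 383 (0.77) and the Itgb1 probe at base 1840 (-0.57) stand at the ends.

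Some markers of other cell types and states were called, where 8.39% of all genes were. Of those tested, 11.1% of the dendritic cell, 9.09% of the naive T cell and 16.7% of the endothelium and stroma markers were called. The share was 20% for macrophage, monocyte and neutrophil, 25% for NK cell and 40% for CD4 and regulatory T cell markers. Of the 13 CD8 T cell identity markers, all tested, 23.1% were called, with a median difference of 0.01. Cd5 fell by 1.12 (adjusted p = 0.00041), and Trat1 and Lat rose by 0.66 and 0.27. Cd8a and Cd8b1 differed by 0.28 and 0.25 and were not called (adjusted p = 0.146 and 0.0651). Of 5 B cell and 4 red blood cell markers tested 0 were called, and the sums of each overlapped between the groups. Their median differences were -0.02 and 0.99. The red blood cell sums were 1.08 to 8.57 in WT and 3.73 to 14.4 in Lck-off, highest on Lck-off replicate 2. Of the dendritic cell markers 9 of 16 were tested, with a median difference of 1.07. Their summed linear level did not overlap between the groups, at 271 to 304 in WT and 343 to 412 in Lck-off. Clec9a and Cd209a never stood well above background. Most of the sum came from Siglech, which overlapped between the groups and differed by 0.10 (adjusted p = 0.609). Bst2, which interferon also induces, was the 1 marker called and rose by 1.73 (adjusted p = 0.0012). Of the macrophage, monocyte and neutrophil markers 10 of 19 were tested, with sums of 218 to 268 in WT and 243 to 282 in Lck-off and a median difference of 0.62; Ly6g, a neutrophil marker, rose by 3.71 (adjusted p = 0.000434) and the complement gene C1qb by 0.59 (adjusted p = 0.0469), and the 8 others were not called. The 4 NK cell genes tested of 11 summed to 20.5 to 20.8 in WT and 32.1 to 40.9 in Lck-off, with the granzyme gene Gzma, also made by activated CD8 cells, the 1 called (2.77, adjusted p = 0.0011). The 11 naive T cell genes summed to 1281 to 1309 in WT and 1060 to 1183 in Lck-off, with Dapl1 the 1 called (-0.77, adjusted p = 0.0034). Neither the NK cell nor the naive T cell sums overlapped between the groups. H2-Ab1 read 2.25 on Lck-off replicate 2 and between 0.02 and 0.96 on its 3 fellow arrays. That array also read highest for Itgb7, and Itgax, the integrin chain CD11c of dendritic cells, was well above background on 1 of the 7 arrays. Without that replicate Itgb7 differed by 0.019, Itga6 by 0.32 and Itgb3 by -0.43, none of them called. Among the repeats with 1 array left out, this one gave the smallest difference in size for Itgb7 and Itgb3, but not for Itga6. The ranges were 0.019 to 0.145 for Itgb7, -0.55 to -0.43 for Itgb3 and 0.30 to 0.40 for Itga6. The loss of calls was not particular to that array. Leaving out 1 array ended the call of Itga6 in 7 of 7 repeats and that of Itgb3 in 6 of 7, and Itgb7 was never called. Of the CD4 and regulatory T cell genes 5 of 7 were tested. Their sums did not overlap either, at 16.9 to 17.7 in WT and 18.2 to 21.7 in Lck-off. Il2ra, the interleukin receptor chain CD25, was well above background on 4 of 4 Lck-off and 0 of 3 WT arrays. It read 9.02-fold higher in Lck-off (adjusted p = 0.0026). That fold uses its own signal in WT, which was not well above background. Ikzf2 fell by 1.70 (adjusted p = 0.0318), and Cd4 differed by 0.04 (adjusted p = 0.892). The part of such cells or states in the integrin differences was not tested.

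Few other integrin chains were detectable in these cells. Of 18 further genes with integrin names on the array, 10 were too dim on all 7 arrays to stand well above background. Among these 10 was the integrin-like gene Itgbl1. Another 5 passed the filter and 0 were called by limma, where 8.39% of all genes were (0 at an unadjusted p under 0.05, median difference -0.02). Itga5, the alpha chain of the fibronectin receptor, differed by -0.38 (adjusted p = 0.324). Itgam, the alpha chain CD11b of myeloid cells, differed by 0.14 at its brightest probe and by -0.37 at the other kept probe, neither called.

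Genes that activate integrins or link them to the cytoskeleton went both ways. Of 47 tested 3 rose, 4 fell and 40 did not pass (14.9% called, against 8.39% of all genes), with a median difference of 0.00. Rap1b, a Rap GTPase that switches integrins on, fell by 0.42 (adjusted p = 0.0277), and Zyx (zyxin, an actin-linked adhesion protein) fell by 0.55 (adjusted p = 0.0327). The tetraspanin genes Cd9 and Cd81, whose products associate with integrins in the membrane, fell by 0.64 and 0.74. Cd47, the integrin-associated protein, rose by 0.39, the paxillin relative Lpxn by 0.39 and the adaptor gene Crk by 0.37. For Crk another probe differed by -0.01, and over all settings Crk ranged from 0.18 to 0.55 and Lpxn from 0.25 to 0.61. Of these 7 genes only Cd9 kept its call in all 7 repeats that dropped an array (highest adjusted p 0.0220); the calls of Rap1b, Cd47, Lpxn, Cd81 and Crk ended in 6 of 7 such repeats and that of Zyx in 5. Talin (Tln1) differed by -0.21 (adjusted p = 0.219), kindlin-3 (Fermt3) by 0.07 and the Rap effector gene Apbb1ip by 0.02, and these 3 were not called.

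Among integrin ligands 12 of 29 were likewise too dim on all 7 arrays and 8 were tested. Of these 1 was called (12.5%, against 8.39% of all genes), with a list median of -0.03. Mfge8, a secreted ligand of Itgav pairs, fell by 0.58 (adjusted p = 0.0123). Its call ended in 1 of 7 repeats with 1 array left out (highest adjusted p 0.0543). The LFA-1 ligand genes Icam1 and Icam2 differed by 0.04 and -0.11, with adjusted p = 0.901 and 0.556.

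Genes of TGF-beta and retinoid signalling, known to set Itgae and gut-homing integrins, were called at a share of 10%, near the 8.39% of all genes. Of 20 tested 1 rose, 1 fell and 18 did not pass, with a median of -0.02. Ccr9, the gut-homing chemokine receptor that retinoic acid induces, rose by 0.69 (adjusted p = 0.0053), and the cytokine gene Tgfb3 fell by 0.88 (adjusted p = 0.0094). Both kept their calls in 7 of 7 repeats with 1 array left out, and over all settings Tgfb3 ranged from -1.12 to -0.48. Another kept probe of Ccr9 differed by 0.48 and was not called (adjusted p = 0.113 over all probes). The receptor genes Tgfbr1 and Tgfbr2 differed by -0.08 and -0.02, Smad3 by 0.07 and Runx3, a transcription factor of CD8 cells, by -0.09; none of these 4 was called.

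Among other adhesion receptors of lymphocytes and the genes that modify them, 5 of 17 fell and 0 rose by limma, with a median of -0.10. That is 29.4% called, against 8.39% of all genes. Of all genes, 4.58% were called lower. At an unadjusted p under 0.05 there were 10, where 3926 of 18256 genes reached it. This list was chosen with earlier results of these data known. Fut7, the fucosyltransferase that makes selectin ligands, went from 1.04 ± 0.18 to -0.51 ± 0.18 (-1.55, adjusted p = 0.000913). Cd99 fell by 1.22, Cd6 by 0.91 and Spn (CD43) by 0.30, and another probe of Spn differed by -0.07. Cd44, the hyaluronan receptor, fell by 1.18, in cells sorted for low CD44 protein. The calls of Fut7, Cd99, Cd6 and Cd44 held in 7 of 7 repeats with 1 array left out, and that of Spn ended in 6. Over all settings Cd44 ranged from -1.36 to -0.69 and Spn from -0.38 to -0.18.

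**Figure D3:**
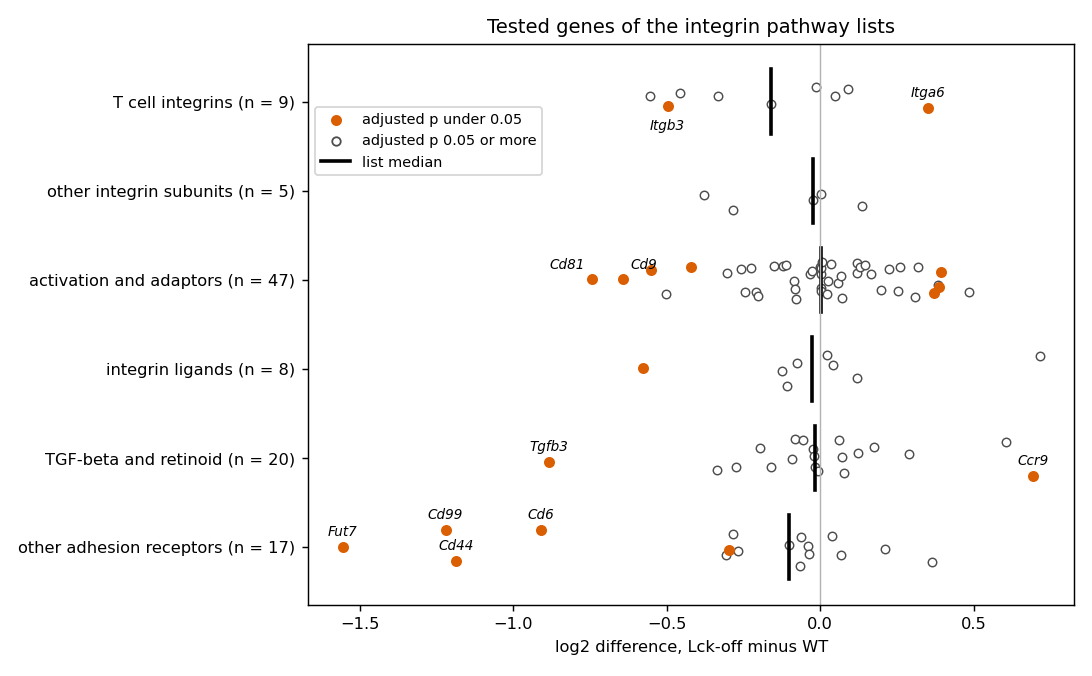
Each point is 1 tested gene at its log2 difference, Lck-off minus WT, on the x axis, in rows by list with the number tested; filled points passed an adjusted p under 0.05 and black bars are list medians. The 5 called genes of the bottom row all lie below 0, and the row of activation genes has 3 above and 4 below.

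Over the 7 arrays, the genes whose centred profile was nearest to Itga6, among 12966 compared, were Kbtbd11 and Grap2, with a root mean square difference of 0.015 and 0.045 on the log2 scale. Kbtbd11 differed between the groups by 0.34 and the adaptor gene Grap2 by 0.40. Nearest to Itgb3 were Exoc6, of the exocyst that docks secretory vesicles, at 0.041 and Dynlt1e, a dynein light chain gene, at 0.058, with differences of -0.46 and -0.46.

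**Figure D4:**
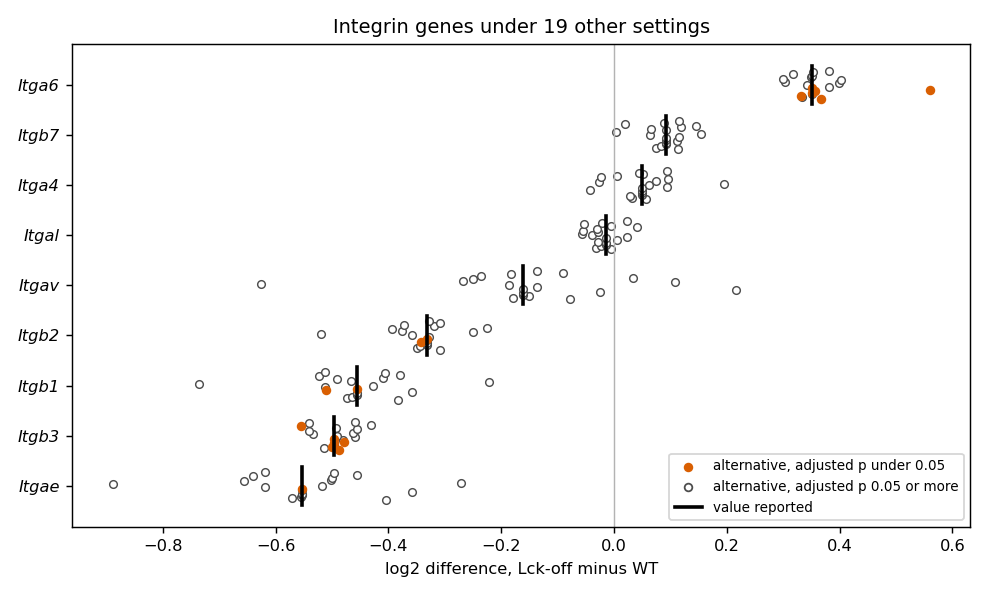
For each integrin gene the black bar is the log2 difference reported, Lck-off minus WT, on the x axis, and each point is 1 of 19 alternative settings, filled where the adjusted p was under 0.05. Itga6 stays above 0 and Itgb1, Itgb2, Itgb3 and Itgae below 0 in every setting, while Itgal, Itga4 and Itgav cross it.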

How the data were processed

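RNA of 3 WT and 4 Lck-off samples (50 ng each, RIN above 8, per the labels) was hybridised to Agilent arrays of design 028005. Feature Extraction 10.7.3.1 produced the deposited intensity of each spot, background subtracted and detrended, together with the flags used here, per the file headers. The authors also deposited values that lie on a log2 scale, judged by their correlation of 0.999 to 1.000 with log2 mean spot intensity; the submitters' processing notes name limma, with no steps given.

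Processed intensity was taken to log2 and the 75th percentile of the array, over all its non-control spots, was subtracted. Non-uniform spots were left out after that step. A probe was kept if a spot of it stood well above background on 3 or more of the 7 arrays (25608 probes), and the brightest kept probe stood for its gene. Groups were compared with limma 3.58.1 (R 4.3.3) across 18256 genes, and separately across all kept probes, with two-sided Benjamini-Hochberg adjusted p under 0.05. The fit was tested on simulated data. Alternatives were background correction, scaling, filter, probe choice, moderation, blocks and left-out arrays; those on single probes were added after seeing the data.

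Named genes were all members, the 2 genes most like each called member, markers beside a result and, from each list, the called genes of smallest p, up to 4 each way. Spn, the called marker genes and the list genes named as not called were chosen after their values were seen. Members and lists were chosen with earlier results of these data known. Sequences and mm9 positions are those in the array files.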

Additional observations from a re-analysis of the deposited data

How the results depend on the processing

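The samples' small number and the dim probes limit these results. The main comparison called 1531 genes, 695 higher and 836 lower. Scaling by the array median called 920 (440 higher, 480 lower), testing without the filter on dim probes 717 (358 and 359), slide row 1 alone 108 (86 and 22) and slide row 2 alone 0 by limma (0 and 0; 2714 at an unadjusted p under 0.05). With 1 array left out, 962 to 1410 genes were called, 450 to 648 higher and 474 to 762 lower. Each single row holds 3 or 4 arrays. The cause of the other changes was not tested.

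Itgb3 kept its direction in 19 of 19 alternatives and lost its call in 13: at -0.51 with median scaling, -0.50 without the filter, -0.48 with the probes averaged, -0.49 with the slide row as a block, -0.53 and -0.46 in rows 1 and 2, and -0.54 to -0.43 in 6 of 7 repeats with 1 array left out (-0.55 without Lck-off replicate 1, which kept it). Itga6 likewise kept its direction in 19 of 19 and lost its call in 13: at 0.33 with median scaling, 0.35 without the filter, 0.34 with the row block, 0.40 and 0.30 in rows 1 and 2, and 0.30 to 0.40 with 1 array left out. Calls were gained by Itgb2 with the deposited values (-0.34) and with trended and robust moderation (-0.33), by Itgb1 with the probes averaged (-0.51) and that moderation (-0.46), and by Itgae with that moderation (-0.55). The sign turned, without a call, for Itgal with the probes averaged (0.0057) and without WT replicate 3 (0.042) or Lck-off replicate 4 (0.022; range -0.055 to 0.042). It turned for Itga4 with the probes averaged (-0.043), in row 2 (-0.026) and without WT replicate 3 (-0.023; range -0.023 to 0.095), and for Itgav with the probes averaged (0.22), in row 2 (0.11) and without WT replicate 3 (0.034; range -0.27 to 0.034). Itgb7 kept its direction and stayed uncalled in 19 of 19.

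Both groups have replicates numbered alike. Same-numbered samples had correlations of their deviations of 0.11, 0.05 and -0.0086, not all over 0.1, and WT 2 and WT 3 correlated best with other numbers, so the numbers were not taken as pairs. With the replicate number as a block 368 genes were called (190 higher, 178 lower), Itgb3 (-0.46) and Itga6 (0.38) were not, Itgal was 0.022, and the Itga6 probe at base 383 (0.79, adjusted p = 0.0601) and the Itgb1 probe at base 1840 (-0.60, adjusted p = 0.0947) missed the threshold; Lck-off replicate 4, which has no partner, adds nothing to that fit.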
